A study of Taeniopygia guttata with 48 samples.

Results

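A set of 158 genes was more abundant in male than in female zebra finches in both brain regions examined, the nucleus taenia of the amygdala and the hypothalamus. The set was drawn from 17475 genes, of which 11029 had a mean of at least 5 FPKM (fragments mapped, scaled to transcript length and to the total of the library) over the 24 RNA libraries. In the nucleus taenia the lowest of 6 male libraries had to exceed the highest of 6 female libraries. In the hypothalamus the male minus female difference in mean log2(FPKM + 1) had to be at least 0.4, with 1 female library left out. The sex contrast of both regions therefore chose the genes, and their sex differences are given below as a description, with no test. The treatments were pooled within a sex and no contrast of treatments or of regions was used as such. The library left out was of testosterone females, so the choice was not balanced over treatments in the female hypothalamus. The criterion was stricter in the nucleus taenia, and it had to hold across both treatments.

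The birds were adult zebra finches (Taeniopygia guttata) hatched from eggs that had been injected on the day of laying. Testosterone birds received 500 pg of the hormone in 5 µl of peanut oil, and control birds received 5 µl of the oil alone, so the eggs of every group were injected. Frozen brains were cut at 50 µm, and each region was taken as a punch of 1 mm, so a library holds RNA of all cells in the punch. The 8 groups were male control, male testosterone, female control and female testosterone birds, each in hypothalamus and in nucleus taenia, with 3 libraries a group. No strain or genetic alteration was given in the labels.

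In birds the males carry a pair of Z chromosomes and the females a Z and a W. Genes of the avian Z chromosome are known to be compensated gene by gene rather than along the whole chromosome, so that many are expressed more strongly in males throughout the body. The brain regions studied here take part in reproduction and social behaviour: the hypothalamus controls hormone release, and the nucleus taenia is counted as part of the avian amygdala. The deposited identifiers are of the Ensembl type and are not paired with symbols or chromosomes, and the reference gene table matched 0 of them. The location of the 158 genes, on the Z or elsewhere, and their functions were therefore not examined, and the genes are described by level, fold and sample. For the same reason the punches could not be checked against markers of their region or of cell types.

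The number of reads behind an FPKM value is lost. Relative depth, estimated from the steps of low values, was 0.57 to 1.39 with the median library set to 1. These estimates are rough, since 37.7% of the 276 pairs of libraries lay within 3% of them. The number of genes above 0 was 14285 to 15152. The library labelled as female testosterone hypothalamus replicate 3 stood apart. Across genes its mean Pearson r with the other libraries was 0.757, while the other 23 libraries had 0.844 to 0.915. The 0.844 was of male testosterone nucleus taenia replicate 2, and the next lowest value was 0.885. Female testosterone hypothalamus replicate 3 is the library left out in the choice of genes. Hypothalamus ratios pooled over treatments, their relation to level and the correlation between regions are given without it. Most other hypothalamus results are given with and without it. Since nothing in the labels ties a library to a bird of its own, the p-values below speak only of the scatter among these libraries, which may in part be technical.

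Of the 11029 genes of sufficient level, 177 (1.6%) had every male library above every female library in the nucleus taenia, and 158 of these also reached 0.4 in the hypothalamus. The share of all genes of that level that reached 0.4 in the hypothalamus was 12.1%. The 19 genes that were left out at this last step fell into 4 that lay between 0.3 and 0.4 and 15 that lay below 0.3, of which 7 had a lower mean in males. The 3 genes just inside that threshold had differences of 0.41, 0.43 and 0.43, and the 3 just outside had 0.39 each. At the level threshold the lowest included gene had a mean of 5.44 FPKM and the highest excluded gene 4.38 FPKM. In the closest included gene the lowest male nucleus taenia library was 1.001 times the highest female one, and in the closest excluded gene 0.997 times.

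The 158 genes were about as abundant as other genes. Their mean level over the 24 libraries had a median of 34.0 FPKM, with quartiles of 16.1 and 67.7 and a range from 5.44 to 792 FPKM. The other 10871 genes above the same minimum had a median of 30.9 FPKM and quartiles of 14.7 and 71.1. The 158 genes made up 1.15% to 1.65% of the summed FPKM of a male library. In the 11 female libraries other than the one that stood apart they made up 0.637% to 0.898%. In these bulk punches fewer cells of a type and less RNA per cell cannot be told apart.

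For most of the genes the ratio between the sexes lay between 1.5 and 2.5 in each region. For the nucleus taenia the ratio of the male to the female mean FPKM had a median of 2.01 over the 158 genes, with quartiles of 1.81 and 2.23 (6 libraries of each sex). In 133 genes it lay between 1.5 and 2.5, in 4 it was under 1.5 and in 21 over 2.5. Hypothalamus ratios were slightly lower, with a median of 1.87 and quartiles of 1.73 and 2.03 (6 male and 5 female libraries). Here 145 genes lay between 1.5 and 2.5, 9 under 1.5 and 4 over 2.5. The rule set a floor to these folds but no explicit ceiling. Its demand for no overlap favours genes of small spread, which also shapes their range. Only 3 genes had a ratio over 3 in the nucleus taenia and 1 in the hypothalamus. Over all genes of sufficient level the largest log2 differences were 5.77 in the nucleus taenia and 4.33 in the hypothalamus. Those of the set were at most 3.28 and 3.13.

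Expressed as log2(FPKM + 1), where the added 1 shrinks the fold of weakly expressed genes, the median male minus female difference was 0.96 in the nucleus taenia and 0.88 in the hypothalamus. Over all 11029 genes of sufficient level the medians were −0.03 and 0.02. The differences of the 158 genes had an SD of 0.23 in the nucleus taenia and 0.20 in the hypothalamus, when the gene with the largest difference was left out. The SE of 1 gene's difference had a median of 0.14 and 0.16 in these regions. Within 2 SE of the median of the set lay 116 of the 158 genes in the nucleus taenia and 133 in the hypothalamus. The spread between genes was thus wider than the typical SE, and the rule, which bars low folds and favours small SEs, shapes both. The difference was larger in the nucleus taenia than in the hypothalamus by a median of 0.11, and the ratio was larger there in 110 of the 158 genes. The rule asked for full separation of the sexes in the nucleus taenia and only for a difference in means in the hypothalamus, which favours this order. Across the 157 genes without the most extreme one, the differences in both regions had a Pearson r of 0.36, which is across genes that were chosen in both contrasts and share libraries.

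**Figure D1:**
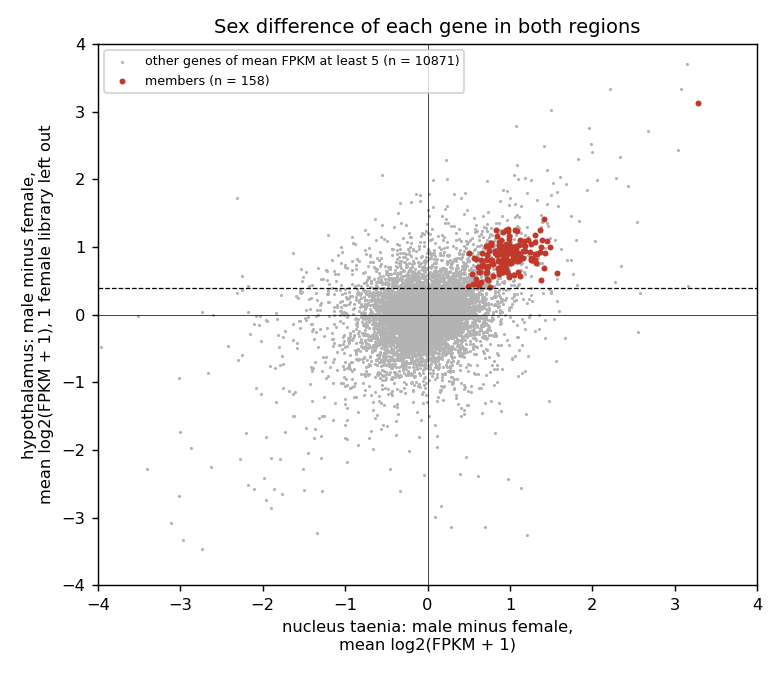
Male minus female difference in mean log2(FPKM + 1) of each gene with a mean of at least 5 FPKM, in the nucleus taenia (horizontal axis) and in the hypothalamus (vertical axis, 1 female library left out); the dashed line marks 0.4, and 8 genes lie outside the axes. The 158 chosen genes (red) form a compact group around 0.96 and 0.88, with 1 gene at 3.28 and 3.13.

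By level, the fold was similar in the nucleus taenia and was slightly larger for abundant genes in the hypothalamus. The 53 least abundant genes of the set, from 5.44 to 22.7 FPKM, had a median ratio of 1.9995 in the nucleus taenia and 1.80 in the hypothalamus. The 52 genes of middle level, from 22.7 to 52.0 FPKM, had 2.01 and 1.88. The 53 most abundant, from 52.3 to 792 FPKM, had 2.03 and 1.93. Across the 158 genes the Spearman rho between level and ratio was −0.002 in the nucleus taenia and 0.22 in the hypothalamus, as a description across genes measured in the same libraries.

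**Figure D2:**
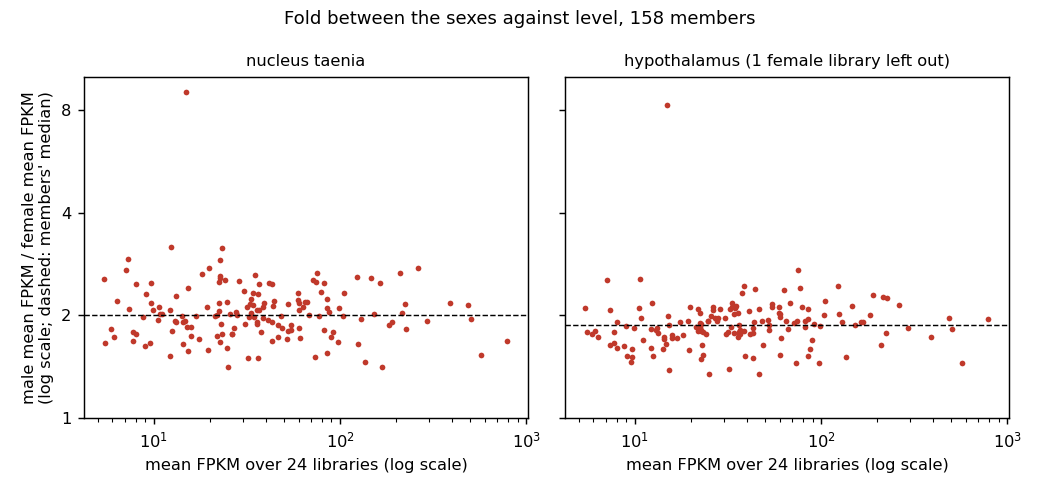
Ratio of the male to the female mean FPKM (vertical axis, log scale) against the mean FPKM over 24 libraries (horizontal axis, log scale) for each of the 158 genes, in the nucleus taenia (left) and in the hypothalamus with 1 female library left out (right). Dashed lines mark the medians of 2.01 and 1.87, with 1 gene far above at 9.02 and 8.28; in the hypothalamus the median ratio is 1.80 in the least and 1.93 in the most abundant genes.

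One gene, ENSTGUG00000016397, had a far larger ratio than the others. In the male nucleus taenia it was at 45.3, 21.9 and 23.9 FPKM in the 3 control libraries, replicate 1 first, and at 34.0, 10.8 and 21.5 FPKM after egg testosterone. In the female nucleus taenia it was listed at 0, 6.02 and 0 FPKM in the control and at 3.85, 0 and 7.58 FPKM in the testosterone replicates. The groups did not overlap, and the male mean was 9.02 times the female mean (log2 difference 3.28, SE 0.68). The male hypothalamus had 38.8, 20.9 and 15.1 FPKM in the control and 26.6, 4.91 and 24.02 FPKM in the testosterone replicates. The female hypothalamus had 0, 6.70 and 0 FPKM in the control replicates and 6.42, 0 and 37.6 FPKM in the testosterone replicates. Male testosterone replicate 2 thus lay below female control replicate 2, and the sexes overlapped even without female testosterone replicate 3. It was the only gene of the 158 that was listed at 0 in any library.

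The next most different gene in both regions was ENSTGUG00000001248. It separated the sexes in the nucleus taenia, as the rule required, and in the hypothalamus only without female testosterone replicate 3. Its nucleus taenia values in males were 98.7, 90.2 and 119 FPKM for control and 98.7, 119 and 148 FPKM for testosterone birds, replicate 1 first. Females had 43.6, 41.0 and 52.2 FPKM and 34.4, 53.5 and 27.0 FPKM there. The male mean was 2.67 times the female mean (112 ± 20.9 against 42.0 ± 10.2 FPKM, SD, n = 6 each). In the hypothalamus the male values were 115, 64.9 and 62.9 FPKM in control and 116, 124 and 75.2 FPKM in testosterone birds, and the female values were 51.8, 37.8 and 24.5 FPKM and 23.7, 33.4 and 142 FPKM. All male libraries exceeded the first 5 female libraries, and the remaining one, female testosterone replicate 3, was the highest of all 12.

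The most abundant gene of the set had a mean of 792 FPKM. Its male nucleus taenia libraries ran from 796 to 1345 FPKM with a median of 894, and the female ones from 482 to 754 FPKM with a median of 574. The male and female means were 992 ± 226 and 591 ± 92.0 FPKM (SD, n = 6 each), a ratio of 1.68. Its hypothalamus means were 987 ± 138 FPKM in 6 male and 505 ± 161 FPKM in 5 female libraries, without overlap. Female testosterone replicate 3 was at 1065 FPKM, within the male range of 765 to 1175 FPKM. With that library the female hypothalamus mean was 599 ± 270 FPKM, and the sexes overlapped. The second most abundant gene, with a mean of 572 FPKM, was near the lower end of the folds. It was at 676 ± 115 FPKM in male and 442 ± 53.2 FPKM in female nucleus taenia (SD, n = 6 each). In the male hypothalamus it ran from 374 to 981 FPKM, and its 5 female libraries from 316 to 471 FPKM lay partly within that range. Control replicates 1 to 3 there were at 484, 374 and 383 FPKM in males and at 444, 471 and 376 FPKM in females. The ratio of these means, 0.96, was the lowest of the set. Testosterone replicates 1 to 3 were at 981, 863 and 509 FPKM in males and at 316, 458 and 1350 FPKM in females.

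Every library but 1 followed its sex label on the set as a whole. A score was taken for each library as the mean log2(FPKM + 1) of the 158 genes, each less its own mean over the 24 libraries. The 12 male libraries scored from 0.26 to 0.63, and 11 female libraries from −0.59 to −0.30. In male libraries 135 to 156 of the 158 genes lay above their own mean, against 0 to 21 in those 11 female libraries. The median FPKM of the 158 genes was 36.9 to 47.3 in male and 19.5 to 25.6 in these female libraries. Because the rule selected on these libraries, the gap between the sexes is a description of the set.

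**Figure D3:**
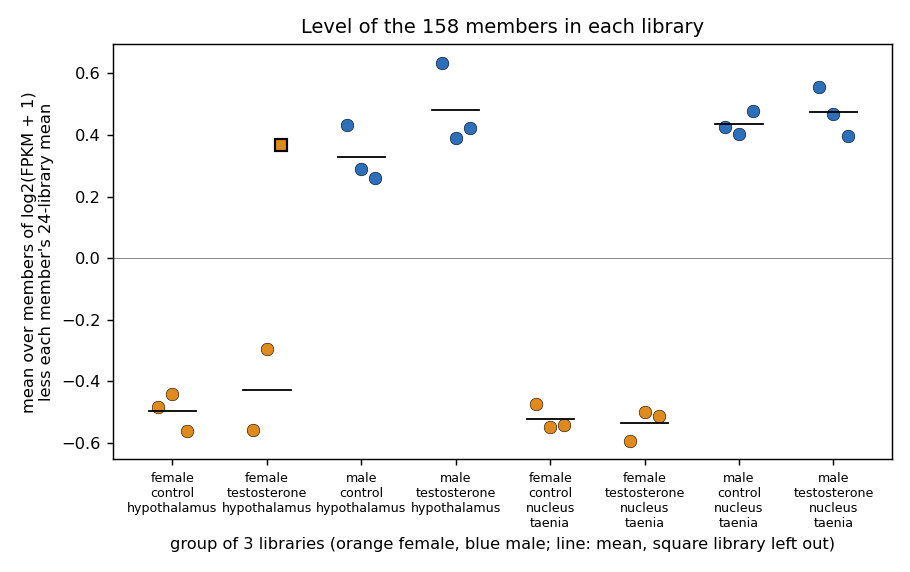
Score of the 158 genes (mean log2(FPKM + 1) less each gene's 24-library mean, vertical axis) in each of the 24 libraries, by group; orange points are female and blue points male libraries, lines are group means without the square point, which is female testosterone hypothalamus replicate 3. Male libraries lie at 0.26 to 0.63 and female libraries at −0.59 to −0.30, apart from the square at 0.37.

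Separation was less complete in the hypothalamus, where the rule asked only for a difference in means. There, 119 of the 158 genes had every male library above the 5 female libraries used, against 1.73% of all genes of sufficient level, a share that the rule itself raises. Of the 39 genes with overlap, the highest female library was testosterone replicate 2 in 19 and control replicate 2 in 10. The lowest male library was control replicate 3 in 16 of the 39 and testosterone replicate 2 in 11. When female testosterone replicate 2 was left out as well, 134 genes had no overlap, against 2.16% of all genes.

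The library labelled as female testosterone hypothalamus replicate 3, which the hypothalamus criterion did not use, had most of the set above the other female libraries. Its score was 0.37, within the male range. Compared with the mean of the other 5 female hypothalamus libraries, the 158 genes were higher in it by a median of 0.78 on the log2 scale, with quartiles of 0.38 and 1.29. Over all genes of at least 5 FPKM that median was −0.03, with quartiles of −1.18 and 0.77. In it, 123 of the 158 genes (77.8%) lay above all other 5 female libraries, against 35.5% of all genes. The rule chose genes that were lower in those 5 libraries than in males, which itself raises this share and the median of 0.78. Compared with the mean of the 6 male hypothalamus libraries the median of the set was −0.002, and that of all genes −0.06 with quartiles of −1.27 and 0.82. Of the 158 genes, 101 (63.9%) reached the lowest male library, close to the 63.3% of all genes. It held 41 of the 158 genes above every male library, against 33.3% of all genes, and 8 below every other female library, against 37% of all genes. The rule chose genes that were high in these male and low in these other female libraries. This itself lowers the counts of 101, 41 and 8 and shapes the median of −0.002. With female testosterone replicate 3 included, all 158 genes had a higher male than female mean in the hypothalamus, and the median difference was 0.73. Then 148 reached 0.4, against 22.9% of all genes, and 49 had no overlap, against 0.843%. The rule used all the other hypothalamus libraries, which itself raises the counts of 158, 148 and 49. Whether the label, the RNA or the tissue sets this library apart was not tested.

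**Figure D4:**
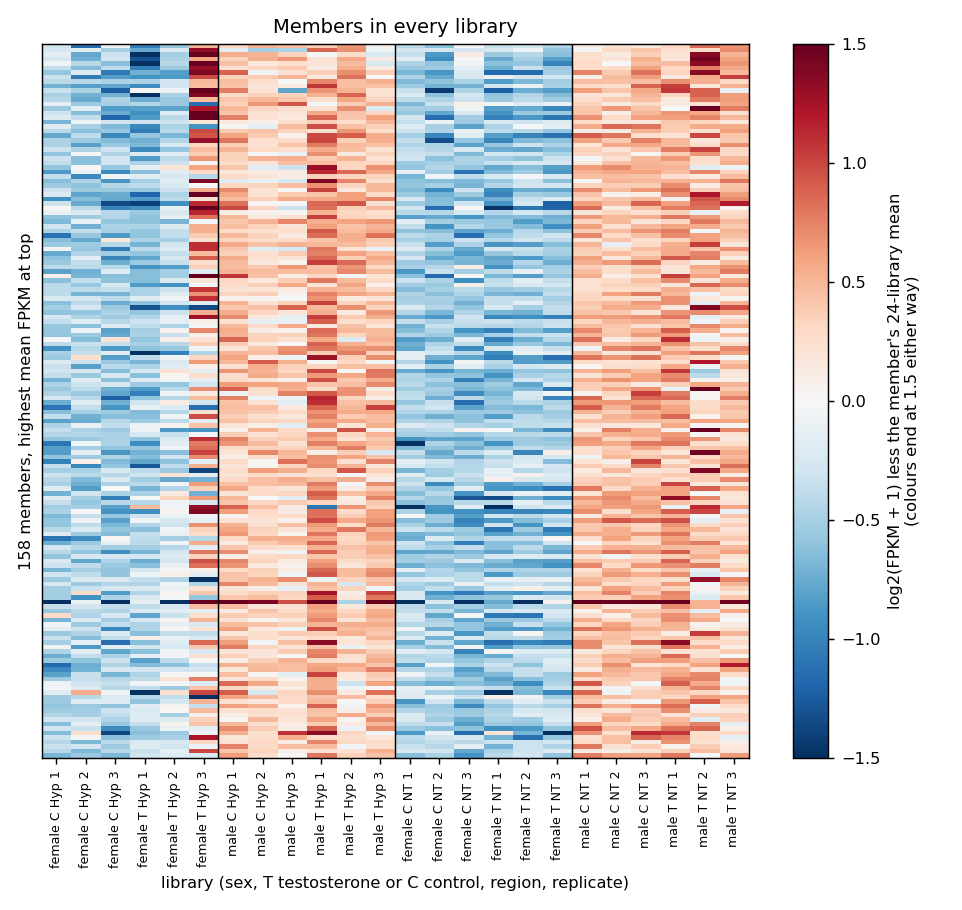
log2(FPKM + 1) of each of the 158 genes (rows, highest mean FPKM at top) less its own 24-library mean, in the 24 libraries (columns, by region and sex; T testosterone, C control, Hyp hypothalamus, NT nucleus taenia); the colour scale ends at 1.5 either way. Male columns are mostly above and female columns mostly below the mean at every level of expression, and the column of female testosterone hypothalamus replicate 3 is mixed, with 110 of the 158 genes above their mean.

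The ratio of the sexes was also taken within control and within testosterone birds. In the nucleus taenia the rule, which held every male library above every female one, fixed a male excess in each treatment. For the nucleus taenia the ratio of male to female means had a median of 1.95 over the 158 genes in control birds, with quartiles of 1.76 and 2.24. In testosterone birds the median was 2.08, with quartiles of 1.77 and 2.44. Hypothalamus ratios had a median of 1.80 in control birds, with quartiles of 1.66 and 1.97. In testosterone birds the median there was 1.94, with quartiles of 1.71 and 2.18, without female replicate 3, and 1.51 with it. In the hypothalamus of control birds 157 of the 158 genes had a higher male mean and 146 had no overlap between 3 male and 3 female libraries, against 51.9% and 5.02% of all genes of at least 5 FPKM. Among testosterone birds these counts were 157 and 147 without female replicate 3, against 54.2% and 15.9% of all genes. With 1 female library fewer than in control birds, a lack of overlap is easier to reach. With female replicate 3 the counts were 146 and 70, against 50% and 9.97%. The rule raises these hypothalamus counts, since it asked for a difference of at least 0.4 over the same libraries without female replicate 3.

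Whether the sex difference depended on egg testosterone was tested by the interaction of sex and treatment, with limma's moderated linear model on log2(FPKM + 1) across all genes of mean FPKM at least 1 and Benjamini-Hochberg adjustment. All 158 genes passed this filter in every fit. In the nucleus taenia 0 of the 158 genes passed an adjusted p of 0.05, as did 0 of all 13551 genes (0%). The rule held the sexes apart in both treatments there, which bars genes whose sex difference vanished or reversed with treatment. At an unadjusted p under 0.05 there were 4 of the 158 (2.53%), against 3.9% of all genes. The fitted interaction, male minus female treatment difference, had a median of 0.03 over the set and −0.01 over all genes, and 83 of the 158 lay above 0, against 49.6% of all genes. The 95% interval of 1 gene of the set had a median half-width of 0.71 on the log2 scale, equal to 1.63-fold. Hypothalamus results were 0 of the 158 and 0 of 13569 genes (0%), with 1 of the 158 (0.633%) and 2.97% of all genes at an unadjusted p under 0.05. The median over the set was −0.16 there, against −0.002 over all genes, and 41 of the 158 lay above 0, against 49.8% of all genes. The rule left out female testosterone replicate 3 and chose genes low in the other female libraries of this region. This itself favours a negative interaction when that library is in the fit. Without female testosterone replicate 3 the median became 0.10 over the set, with 107 of the 158 above 0, and −0.02 over all genes. The half-width of 0.93, equal to 1.91-fold, was as wide as the median sex difference of 0.88 in that region.

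None of the 158 genes passed the threshold for egg testosterone within a sex and region in limma, which does not show that they were unaffected. In the male hypothalamus limma called 0 of the 158 and 0 of 13569 genes (0%) at an adjusted p of 0.05, the smallest adjusted p in the set being 0.801. At an unadjusted p under 0.05 there were 3 of the 158 (1.899%), against 6.14% of all genes. With female testosterone replicate 3 left out of the shared spread there were 12 of the 158, against 10.4% of all genes, and 0 were called. Testosterone minus control had a median of 0.18 over the set, with quartiles of 0.02 and 0.31, and was above 0 in 121 of the 158 genes. Over all genes the median was −0.05, and 45.3% lay above 0. The library scores were 0.43, 0.29 and 0.26 in male control hypothalamus replicates 1 to 3 and 0.63, 0.39 and 0.42 in male testosterone replicates 1 to 3, so the groups overlapped. Without testosterone replicate 1, the highest, the median was 0.10 over the set, with 113 of the 158 genes above 0, and −0.02 over all genes. Relative depth in these libraries was 0.624 to 1.12 in testosterone and 1.03 to 1.33 in control birds, and its part in the difference was not tested.

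In the female hypothalamus the values hung on 1 library, testosterone replicate 3. The rule left it out and chose genes that were low in the other female hypothalamus libraries. This itself favours a higher testosterone mean here. limma called 0 of the 158 and 0 of 13569 genes (0%), with 8 of the 158 (5.06%) and 5.14% of all genes at an unadjusted p under 0.05. The median of testosterone minus control was 0.36 over the set, against 0.01 over all genes, and 143 of the 158 genes lay above 0, against 50.7% of all genes. Scores were −0.49, −0.44 and −0.56 in control replicates 1 to 3 and −0.56, −0.30 and 0.37 in testosterone replicates 1 to 3. Without testosterone replicate 3 the median was 0.10 over the set and 0.0004 over all genes, with 102 of the 158 genes above 0 and 0 called. Without testosterone replicate 1, which left replicates 2 and 3 in that group, the median of the set was 0.53. That fit had 48 of the 158 genes and 21.0% of all genes at an unadjusted p under 0.05, and it called 0 of the 158 and 3 of all genes. Relative depth was 0.619 to 0.875 in the testosterone and 1.19 to 1.39 in the control libraries, and its part in these values was not tested.

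Nucleus taenia treatment differences of the set were centred near 0 in both sexes. In males 0 of the 158 and 0 of 13551 genes (0%) passed in limma, with 3 of the 158 (1.899%) and 2.79% of all genes at an unadjusted p under 0.05. Testosterone minus control had a median of 0.05 over the set and 0.02 over all genes, and 93 of the 158 lay above 0, against 51.9% of all genes. The median was −0.02 without testosterone replicate 1. That limma fit had 17 of the 158 genes and 10.1% of all genes at an unadjusted p under 0.05, and it called 0 of the 158 and 1 of all genes. Females had 0 of the 158 and 0 of 13551 genes (0%) past the limma threshold, with 4 of the 158 (2.53%) and 2.94% of all genes at an unadjusted p under 0.05. Their median was 0.01 over the set and 0.03 over all genes, and 81 of the 158 lay above 0, against 53.5% of all genes. Relative depth in the nucleus taenia was 0.806 to 0.948 in female testosterone and 0.974 to 1.105 in female control libraries. In male libraries it was 0.888 to 1.21 for testosterone and 0.57 to 1.302 for control, and its part in these values was not tested. The choice of genes without overlap between 6 male and 6 female libraries favours a small spread within a sex in this region, and so limits how large a treatment difference could be. The whole 95% interval lay within 1 log2 unit of 0 for 143 genes in males and 142 in females here. In the hypothalamus this held for 95 in males and 74 in females. The share of all genes was not taken, and the rule favours narrow intervals. Their median half-width was 0.50 in the set and 0.79 over all genes in the nucleus taenia. In the hypothalamus, where female testosterone replicate 3 was part of the shared spread, it was 0.66 and 0.91.

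**Figure D5:**
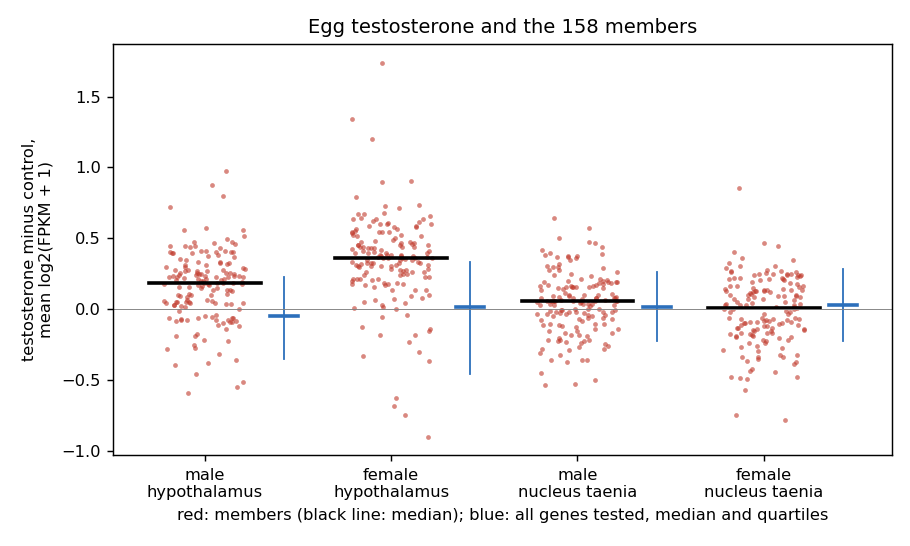
Testosterone minus control difference in mean log2(FPKM + 1) of each of the 158 genes (red points; black lines are medians) in the 4 sets of sex and region, 3 libraries a group, beside the median and quartiles of all genes tested (blue). The medians of the set are 0.18, 0.36, 0.05 and 0.01 from left to right, and 0 of the 158 genes passed an adjusted p of 0.05 in any set.

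Levels of the set lay close together in both regions of males, and less so in females. The choice of genes shapes both results. The rule was stricter in the nucleus taenia, which favours high male and low female values there. It also left out female testosterone hypothalamus replicate 3, which favours higher values of the set in that library than in the other female ones. In males nucleus taenia minus hypothalamus had a median of 0.04 over the 158 genes and 0.01 over all genes. limma, fitted to all 24 libraries, called 0 of the 158 and 0 of 13612 genes (0%), with 0 of the 158 and 1.77% of all genes at an unadjusted p under 0.05. For 153 genes of the set the whole 95% interval lay within 1 log2 unit of 0. The share of all genes was not taken. The rule favours narrow intervals, and their median half-width was 0.38 in the set and 0.60 over all genes. Of the 158 genes, 100 were higher in the male nucleus taenia, against 52.6% of all genes. In females the median was −0.21 over the set and 0.03 over all genes. limma called 0 of the 158 and 0 of 13612 genes (0%), with 28 of the 158 (17.7%) and 14.5% of all genes at an unadjusted p under 0.05. Without female testosterone hypothalamus replicate 3 the female median was −0.07 over the set and 0.03 over all genes. That limma fit had 17 of the 158 genes and 8.47% of all genes at an unadjusted p under 0.05. Of the 158 genes, 32 were higher in the female nucleus taenia with that library and 60 without it, against 53.2% of all genes with it. Without female testosterone hypothalamus replicate 1 the median was −0.32, with 65 of the 158 genes and 27.2% of all genes at an unadjusted p under 0.05. With replicate numbers within sex and treatment as a block, the medians were the same as without it, 0 genes were called in either sex, and 39 of the 158 genes and 21.1% of all genes had an unadjusted p under 0.05 in females.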

How the data were processed

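RNA of 24 libraries was examined, made with a stranded mRNA kit per the labels; the series also has 24 DNA methylation samples, not analysed here. The deposited table holds FPKM per gene, computed by the authors. The submitters' processing notes name cutadapt 1.9.1, TopHat2 2.1.1 and Cufflinks 2.2.1. Genome build, annotation and strand setting: not given in the sources used here. For that reason reads shared by near-identical, overlapping or antisense genes could not be judged. FPKM is a share of each library, so a large change in a few abundant genes shifts all others, and a 0 may be a failed estimate.

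Each column was assigned to a sample by its name, and 0 columns stayed unassigned. The genes and the lists were chosen with earlier results of these data known, so counts over them are descriptions. Values were tested as log2(FPKM + 1), a scale that understates the fold of low genes, for genes with a mean of at least 1 FPKM. limma 3.58.1 in R 4.3.3 was fitted with mean-variance trend and 1 mean per group, on the 12 libraries of a region for treatment and its interaction with sex, and on all 24 for region. Benjamini-Hochberg adjustment ran over all genes tested, with a threshold of 0.05. The fit was tested on simulated data. Figures were drawn with matplotlib 3.10.9.

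The genes to be described singly were the 2 with the largest sex difference in both regions, each judged by its smaller one, and the 2 most abundant. Only the first pair is given by identifier, because no names were at hand. Lists of cell type markers by symbol could not be applied. Whether replicate numbers pair libraries was judged by the correlation of same-numbered deviations from the group means, with a limit of 0.1. For treatment in the female nucleus taenia all 3 pairs passed (r = 0.171, 0.232 and 0.151), a sign from the data and not from the labels. Between regions all 3 pairs also passed within male control (0.669, 0.535 and 0.532) and female testosterone birds (0.333, 0.218 and 0.247). Not all passed in male testosterone (0.377, 0.294 and −0.062) and female control birds (−0.012, 0.273 and 0.222). Whether same-numbered libraries of both regions came from the same bird is not stated in the labels, so the regions may not be independent. In each other treatment comparison at least 1 pair did not pass. Alternatives were other pseudocounts, other filters on low values, median-ratio scaling, the replicate number as a block, only the libraries of the comparison, and each library left out in turn.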

Additional observations from a re-analysis of the deposited data

Results flagged for a closer look

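In groups of 6 libraries of 1 sex and region, 24 checks were made of whether 1 library lay far from the other 5, where chance gives about 1 in 20. There were 5 such values, and all were of female testosterone hypothalamus replicate 3 (as labelled). The rule chose the set for a male excess over the other 5 female hypothalamus libraries, which favours such values in this library. The measures also share genes, so the 5 values cannot be set against the 1 in 20. The score of the 158 genes was 0.37 in it, and the next female hypothalamus library had −0.30. The 158 genes made up 1.24% of its summed FPKM, and at most 0.898% in the other 5. ENSTGUG00000016397 was at 37.6 FPKM, against at most 6.70 FPKM in the other 5. ENSTGUG00000001248 was at 142 FPKM, against at most 51.8 FPKM. The second most abundant gene of the set was at 1350 FPKM, against at most 471 FPKM. The source of these values was not tested.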

How the results depend on the processing

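None of the 134 refits of the 8 tested contrasts called any of the 158 genes, and 19 refits called some other gene, at most 17. Only the libraries of the comparison in the fit gave 1 gene for treatment in the female hypothalamus, and this setting did not apply to the interactions. A pseudocount of 5 lowered the median sex difference to 0.83 in the nucleus taenia and 0.74 in the hypothalamus, by construction, and including female testosterone replicate 3 lowered the latter to 0.73. With the replicate number as a block 0 of the 158 genes and 0 genes overall were called in the 8 contrasts, and the medians of the set were the same as without it (0.18 in the male hypothalamus). Other layouts of the block, and leaving female testosterone hypothalamus replicate 3 out of the spread in the male contrasts, were chosen after seeing the data.

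With each library left out in turn, the genes called by limma ranged from 0 to 17 for treatment in the male hypothalamus, 0 to 3 in the female hypothalamus, 0 to 4 in the male and 0 to 1 in the female nucleus taenia. The ranges were 0 to 1 for each interaction and 0 to 3 for region in females. The 17 genes appeared without male testosterone hypothalamus replicate 3. Medians of the set ranged from 0.10 to 0.53 for treatment in the female hypothalamus, −0.018 to 0.095 in the male nucleus taenia, −0.33 to 0.10 for the hypothalamus interaction and −0.323 to −0.0702 for region in females. The rule gave 155 to 197 genes with a library left out, 139 to 170 with other minimum levels, 152 to 162 with other hypothalamus limits, and 159 after median-ratio scaling, of which 153 were among the 158. The 197 genes appeared without male testosterone nucleus taenia replicate 2. Small differences are limited by 3 libraries a group, and reads behind low FPKM values are unknown.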

Other observations

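The mirror of the rule found fewer genes. Of the 11029 genes of at least 5 FPKM, 37 had every female nucleus taenia library above every male one, against 177 the other way round. In the hypothalamus 18 of these 37 had a male minus female difference of −0.4 or lower, without female testosterone replicate 3. The share of all genes at −0.4 or lower there was not taken, so 18 of 37 has no background beside it. No test was made of the difference in number between the 37 and the 177 genes.

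Among the 158 genes the spread within a group was small. The SD of log2(FPKM + 1) within groups, pooled over the 23 libraries without female testosterone hypothalamus replicate 3, had a median of 0.24, against 0.40 over the other genes of at least 5 FPKM. The rule favours genes of small spread. Deviations from the group means had a mean correlation of 0.12 between pairs of the 158 genes, against 0.005 between pairs of all genes of that level, given as a description over libraries that differ in depth.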
